A study of Mus musculus with 2 samples.

Results

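The immediate early genes examined here were 10 transcripts, Fos, Jun, Junb, Jund, Egr1, Atf3, Klf2, Klf6, Ier2 and Btg2. They were chosen by gene symbol, and all 10 had a row among the 31053 features of both libraries. The 2 libraries were single-cell RNA-seq of cells that carried Cd11b and Cd45, surface proteins of myeloid cells, sorted from the hypothalamic and thalamic region of CD1 mouse embryos at E15.5. The stressed library pooled 5 embryos of 1 dam that spent 30 min per day at 4 °C from E11.5 to E15.5, over 5 days. The control library pooled 10 embryos of 1 unstressed dam. Both groups were wild type, neither carried a transgene, and the dam, the litter and the library cannot be told apart from the treatment.

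Immediate early genes are transcribed within minutes of a stimulus from factors already present in the cell, without new protein synthesis. Fos and Jun family proteins pair as the transcription factor AP-1, Atf3 is a stress-responsive partner of the same bZIP class, Egr1 is a zinc-finger factor induced through serum response factor, and Klf2 and Klf6 are Krüppel-like zinc-finger factors. Klf2 is known for its part in endothelial and myeloid quiescence, Ier2 encodes a small nuclear early-response protein, and Btg2 is an antiproliferative gene that marks neurogenic progenitors in the embryonic brain. In microglia, the resident macrophages of the brain, such genes are also known to be switched on while tissue is taken apart. Per the labels' protocols the tissue was cut with a blade on ice and stained at 4 °C, and no enzyme is named.

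The sequences upstream of the RefSeq starts of 4 genes on which the results turn are shown 5′ to 3′ on the strand of the gene. They come from RefSeq with the build GRCm38.p6. Atf3 differed between microglial states and Btg2 between cell classes. Junb and Klf2, among other genes, differed between the libraries in microglia, though not beyond counting error once cells were matched in depth. Capitals mark the letters of searched motifs on either strand: TGACGTCA (the full cyclic AMP response element), TGACG (its first part, which the full element contains), GCGNGGGCG (an Egr site, which overlaps a GC box in Klf2 but not in Btg2), the GC box, which reads GGGCGG, and the box named TATA, which was searched as TATAAA.
Atf3 (chr1:191183341-191183583, minus strand): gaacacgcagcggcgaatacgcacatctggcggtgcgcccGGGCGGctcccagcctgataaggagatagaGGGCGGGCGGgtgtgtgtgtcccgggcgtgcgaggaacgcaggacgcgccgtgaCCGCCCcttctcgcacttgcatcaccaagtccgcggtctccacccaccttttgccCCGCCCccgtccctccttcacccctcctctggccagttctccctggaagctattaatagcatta
Junb (chr8:84978749-84978998, minus strand): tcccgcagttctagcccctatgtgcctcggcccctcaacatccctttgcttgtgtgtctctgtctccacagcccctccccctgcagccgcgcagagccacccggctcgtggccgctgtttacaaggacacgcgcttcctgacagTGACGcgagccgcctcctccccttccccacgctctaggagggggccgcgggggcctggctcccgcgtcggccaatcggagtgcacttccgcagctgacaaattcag
Klf2 (chr8:72318812-72319032, plus strand): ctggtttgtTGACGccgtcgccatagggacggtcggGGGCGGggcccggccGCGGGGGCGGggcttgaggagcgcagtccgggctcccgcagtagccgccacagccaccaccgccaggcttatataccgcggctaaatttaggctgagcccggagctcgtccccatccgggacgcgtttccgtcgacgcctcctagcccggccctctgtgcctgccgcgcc
Btg2 (chr1:134079156-134079405, minus strand): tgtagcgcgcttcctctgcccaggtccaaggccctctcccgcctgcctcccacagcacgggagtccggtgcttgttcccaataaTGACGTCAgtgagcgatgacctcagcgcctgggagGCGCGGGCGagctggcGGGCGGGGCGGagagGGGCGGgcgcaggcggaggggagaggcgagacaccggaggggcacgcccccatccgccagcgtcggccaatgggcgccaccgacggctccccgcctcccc
The Klf2 stretch leaves out 29 bases next to the RefSeq start that GENCODE M21 places inside the gene. For Atf3, GENCODE M21 places the gene at chr1:191170296-191218039, so the RefSeq start is internal and the whole stretch lies inside the gene. The Atf3 stretch leaves out 7 bases that GENCODE places in an exon, and a TGACG match of Atf3 lay among them.

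Of the 10 genes, 8 had a promoter in the RefSeq table, and Egr1 and Ier2 did not. Among 250-base windows upstream of the start, TGACG matched in 5 of the 8 (Fos, Junb, Atf3, Klf2 and Btg2), against 17.9% of 32536 promoters. The full element TGACGTCA matched in Btg2, against 1.56% of promoters. The GC box matched in 6 of the 8 against 33.0% of promoters, and the Egr site in Klf2 and Btg2 against 4.74%. The TATA box matched in Fos, against 12.3%. The AP-1 site TGANTCA (6.73% of promoters) and the CArG box of serum response factor (1.48%) matched in none of the 8 windows. The Jund window ended 1210 bases before the GENCODE gene start, so it is not shown, though it counts among the 8. A match says that the letters are present and no more. The lack of a match holds only for the searched letters in these 250 bases, and sites farther out or with other letters were not searched.

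The stressed library held 1467 barcodes and 6582188 UMIs (unique molecules counted), the control library 1156 barcodes and 2833015 UMIs. Cells were assigned to classes by counts of marker genes, none of which was an immediate early gene. This gave 1155 stressed and 687 control microglia-like cells, 29 and 80 border-associated macrophage-like cells (macrophages of the meninges and vessels) and 124 and 164 neural-like cells. The label of sorted microglia held for 82.1% of the stressed and 64.3% of the control cells kept. Microglia-like cells had a median of 4019 UMIs in the stressed and 2160 UMIs in the control library, and 93.7% and 33.8% of them had Xist, which females transcribe, so depth and embryo sex differed along with treatment. The median mitochondrial share of these cells, a sign of RNA quality, was 3.55% in the stressed and 2.28% in the control library. The libraries shared 13 barcodes, and 1 of them was a microglia-like cell kept in the analysis. With 1 library per condition there was no test, and every interval is a 95% interval for counting error only.

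In microglia-like cells the 10 genes together stood at 440 CPM (UMIs scaled to the class total, exact Poisson interval 422 to 458) in the stressed and 373 CPM (345 to 402) in the control library. The log2 ratio was 0.24 (0.11 to 0.36, exact conditional interval). Jund alone gave 37.8% of the summed UMIs in the stressed and 38.2% in the control library. Junb and Klf2 were higher in the stressed library past 1.5 times, the fold used here as the call, and none of the 9 genes with at least 10 CPM was lower. Of all 7505 genes at that level, 2.81% were higher and 7.61% lower past the same fold. The median log2 ratio was 0.22 over the 9 genes and −0.09 over all genes. With edgeR's TMM scaling, which adds 0.11 to every log2 ratio, the shares of all genes were 4.48% higher and 4.73% lower and Jun was the third gene past the fold.

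**Figure D1:**
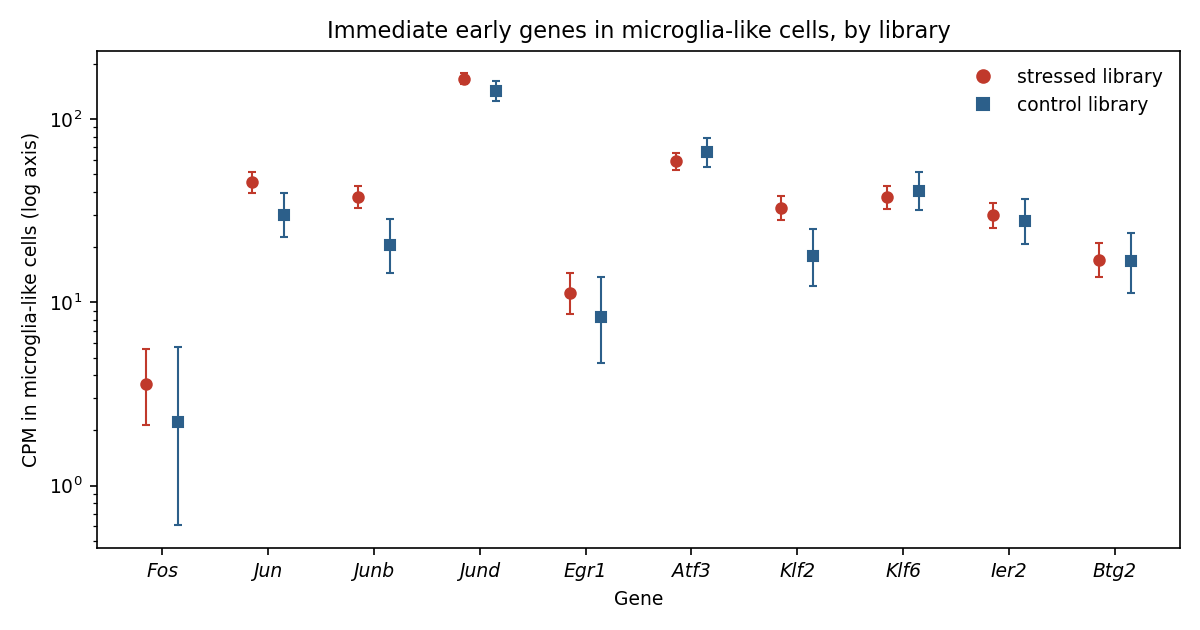
Level of each immediate early gene in microglia-like cells in CPM (log axis), with the stressed library as circles and the control library as squares and exact Poisson 95% intervals for counting error. The intervals of the 2 libraries lay apart for Jun, Junb and Klf2 and overlapped for the other 7 genes.

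Among the AP-1 genes, Junb gave 200 UMIs and 37.6 CPM (32.5 to 43.1) in the stressed library, against 37 UMIs and 20.6 CPM (14.5 to 28.4) in the control library. Its log2 ratio was 0.86 (0.35 to 1.41) and the 2 intervals of the level did not overlap. Prdx2 overlaps Junb on the other strand, and whether strand was used in counting is not given in the sources used here. Prdx2 stood at 281 CPM in the stressed and 296 CPM in the control library. Jun, the partner of Fos, had 45.1 CPM (39.6 to 51.2) in the stressed library, against 30.1 CPM (22.6 to 39.3) in the control library. Its log2 ratio, 0.58 (0.15 to 1.04), was just short of the fold. Jund, the Jun family member that is expressed without stimulation in many tissues, had 166 CPM (155 to 178) in the stressed and 142 CPM (125 to 161) in the control library. Its log2 ratio was 0.22 (0.02 to 0.43), inside the fold. Jun and Jund also overlap genes on the other strand, Junos and Gm11175.

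Fos, the best-known immediate early gene, gave 19 UMIs in the 1155 stressed microglia-like cells and 4 UMIs in the 687 control cells. These are 3.57 CPM (2.15 to 5.57) in stressed and 2.23 CPM (0.61 to 5.71) in control cells, which is 0.68 on the log2 scale with an interval of −0.91 to 2.69. A difference in Fos was not detectable at this depth. Atf3 stood at 58.8 CPM (52.5 to 65.7) in the stressed and 65.8 CPM (54.5 to 78.8) in the control library, a log2 ratio of −0.16 (−0.47 to 0.15), and its intervals overlapped. The direction of Atf3 differed among the ways of taking the cells, with log2 ratios from −0.17 to 0.48.

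Egr1 stood at 11.3 CPM (8.60 to 14.5) in the stressed and 8.37 CPM (4.68 to 13.8) in the control library. Of the Krüppel-like factors, Klf2 gave 175 UMIs and 32.9 CPM (28.2 to 38.1) in the stressed library, against 32 UMIs and 17.9 CPM (12.2 to 25.2) in the control library, a log2 ratio of 0.88 (0.33 to 1.47). Its intervals did not overlap. Klf6 stood at 37.4 and 40.7 CPM, Ier2 at 29.9 and 27.9 CPM and Btg2 at 17.1 and 16.7 CPM in the stressed and control libraries. The log2 ratios of these 3 genes lay between −0.12 and 0.10, and the intervals of all 3 included 0.

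Junb and Klf2 each passed the fold in 12 of 13 alternatives and fell short of it at matched depth. After each cell was thinned once to 1000 UMIs, the log2 ratio was 0.44 (−0.40 to 1.35) for Junb and 0.33 (−0.53 to 1.25) for Klf2, intervals that also hold the unthinned values. None of the 9 genes passed the fold there, against 8.70% of all genes higher. As a mean of per-cell CPM, which also weights cells equally, the log2 ratio was 0.85 for Junb and 0.72 for Klf2. After thinning, a Junb UMI was found in 3.21% of stressed (exact binomial interval 2.27 to 4.39%) and 2.61% of control cells (1.53 to 4.15%), against 14.1% and 5.09% before thinning. A Klf2 UMI was found in 2.86% (1.98 to 3.99%) and 2.46% (1.41 to 3.96%) of thinned cells, against 9.96% and 4.08% before thinning. In thinned neural-like cells, which served as the gauge of free RNA, Junb was found in 0 of 119 stressed cells, which allows up to 2.52%, and in 0.699% of control cells. Among cells with Xist and no Y-linked UMI (1081 stressed and 228 control cells), the log2 ratio was 0.72 (−0.06 to 1.62) for Junb, 0.64 (−0.17 to 1.58) for Klf2 and 1.11 (0.30 to 2.04) for Jun. The part of depth or sex in these differences was not tested beyond these values.

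**Figure D2:**
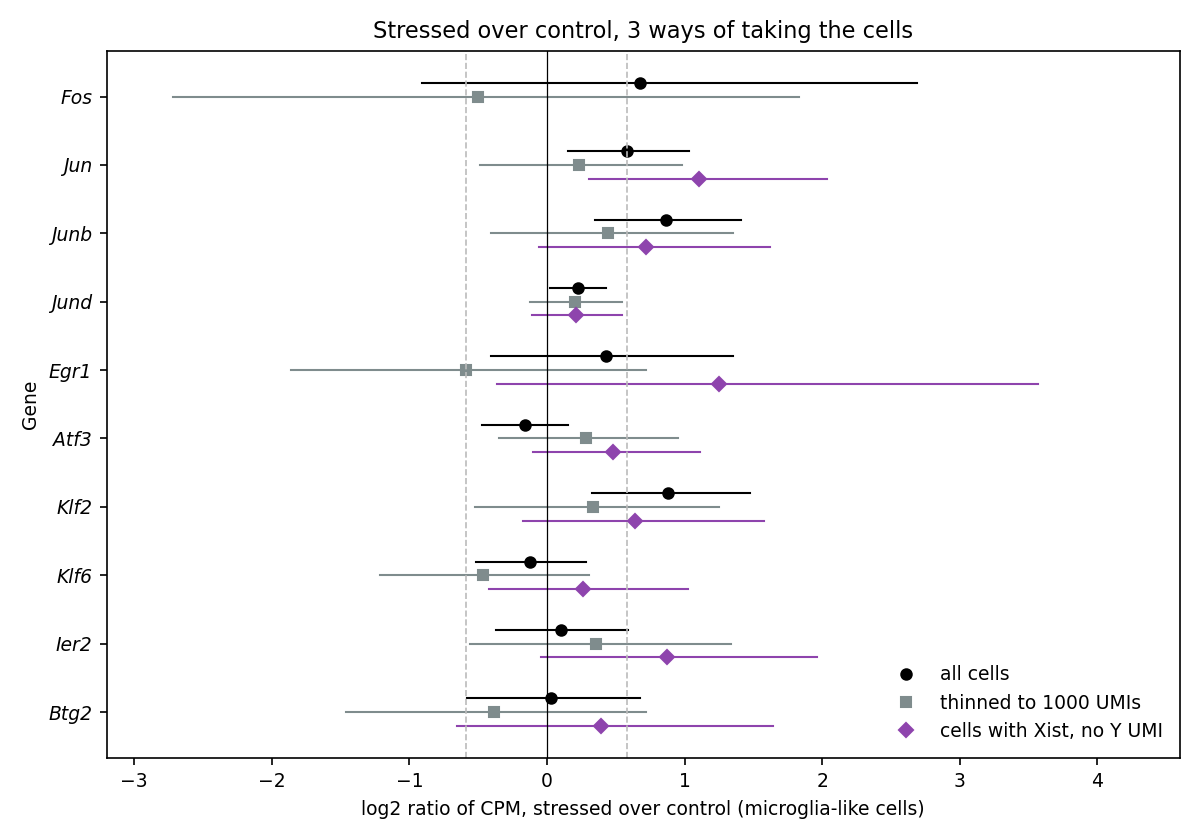
Log2 ratio of CPM, stressed over control, in microglia-like cells for all cells (circles), cells thinned to 1000 UMIs (squares) and cells with Xist and no Y-linked UMI (diamonds), with exact conditional 95% intervals and dashed lines at 1.5 times. Junb and Klf2 lay beyond the right line with all cells and inside it after thinning, and Fos has no diamond because no control cell of that kind had a UMI.

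The clearest pattern among the 10 genes lay between microglial states of the same library. Microglia-like cells with at least 2 UMIs and 0.1% of UMIs of the chemokines Ccl3 and Ccl4 numbered 144 in the stressed and 93 in the control library, and resting-type cells, which met no state gate, numbered 603 and 384. In the chemokine state, Atf3 stood at 203 CPM (172 to 239) against 35.9 CPM (28.3 to 44.9) in resting-type cells of the stressed library. In the control library Atf3 stood at 234 CPM (177 to 304) in the chemokine state against 30.6 CPM (19.6 to 45.5) in resting-type cells. The log2 ratio of chemokine state over resting-type was 2.50 (2.09 to 2.92) in the stressed and 2.94 (2.22 to 3.69) in the control library. The chemokine state thus held 147 of the 313 Atf3 UMIs of the stressed microglia-like cells and 57 of the 118 of the control cells.

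Depth was higher in the chemokine state, with a median of 4805.5 against 3261 UMIs per cell in the stressed and 2303 against 1770.5 UMIs in the control library. At 1000 UMIs per cell, an Atf3 UMI was found in 15.3% (9.83 to 22.2%) of chemokine-state and 3.32% (2.04 to 5.08%) of resting-type cells of the stressed library. In the control library the thinned shares were 12.1% (6.19 to 20.6%) and 2.85% (1.37 to 5.18%). Thinned neural-like cells had no Atf3 UMI in 119 stressed and 143 control cells, which allows shares of up to 2.52% and 2.10%. Under 4 other ways of taking the cells, chosen after the main values were seen, the log2 ratio of Atf3 stayed between 2.29 and 2.81 in the stressed and between 2.36 and 3.16 in the control library.

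Of 6 genes that reached 20 CPM for this comparison, Atf3 and Ier2 were higher in the chemokine state past 1.5 times in both libraries, and none was lower in both. Among all 4898 genes at that level 4.98% were higher and 3.29% lower in both. Ier2 stood at 45.6 CPM against 26.6 CPM in resting-type cells of the stressed library and, in the control library, at 69.9 CPM against 23.0 CPM. Its log2 ratios were 0.78 (0.11 to 1.42) and 1.61 (0.56 to 2.65). Egr1 stood at 19.3 CPM against 8.39 CPM in the stressed library and, in the control library, at 16.4 CPM against 8.93 CPM, from 14 and 4 chemokine-state UMIs. Jund stood lower in the chemokine state, with 178 CPM against 216 CPM in the stressed and 107 CPM against 182 CPM in the control library, and passed the fold in the control library alone.

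**Figure D3:**
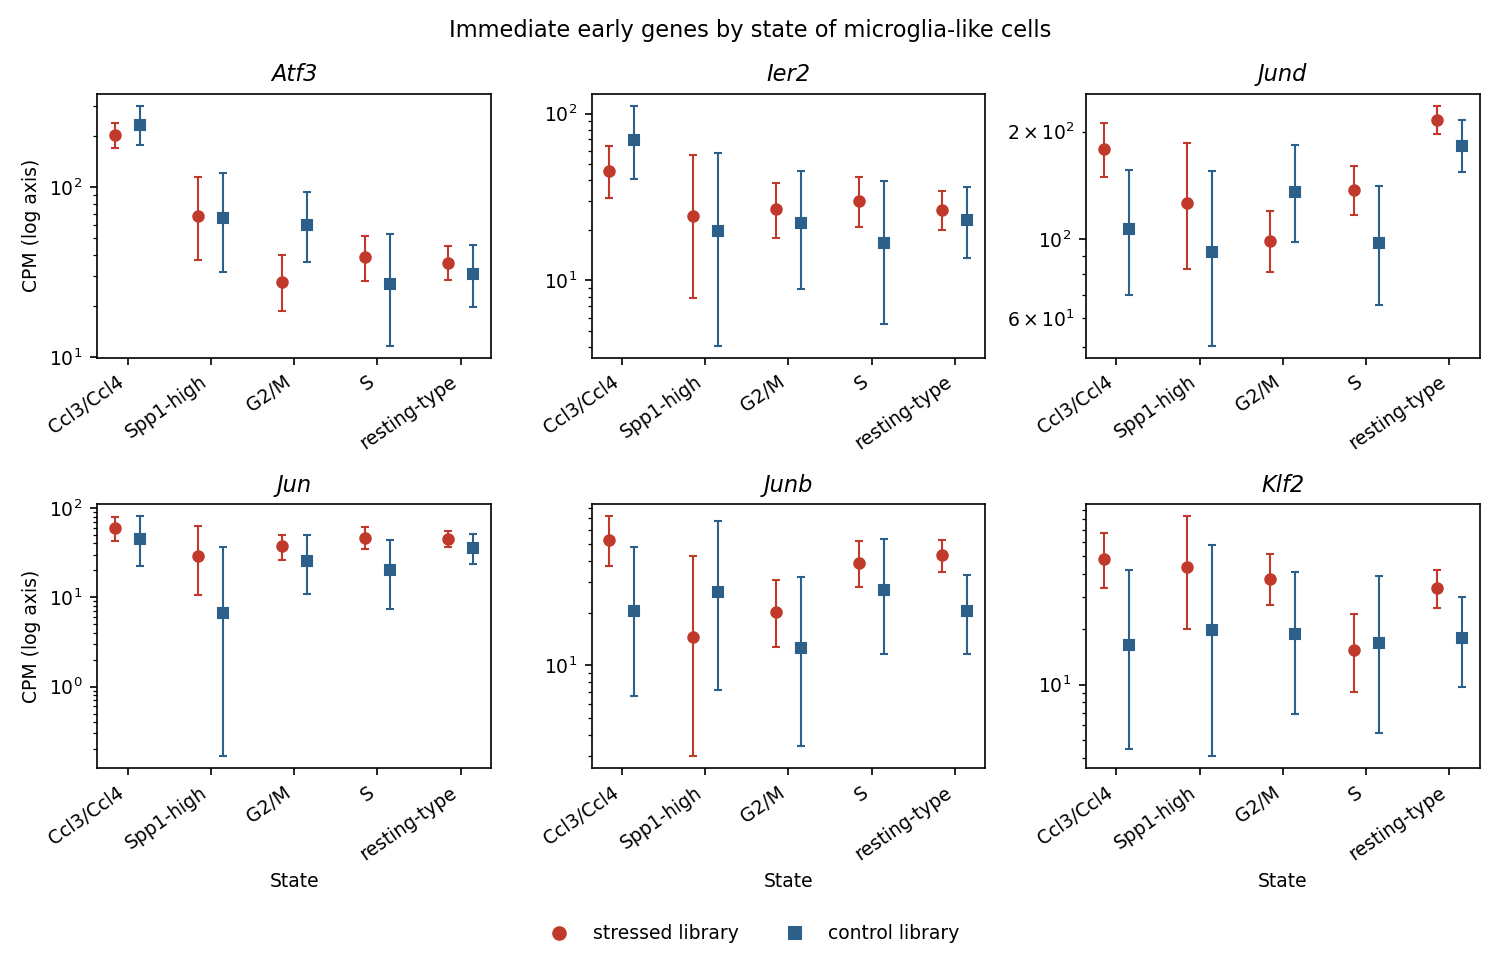
Level in CPM (log axis) of 6 immediate early genes in the microglial states of the stressed (circles) and control library (squares), with exact Poisson 95% intervals for counting error. Atf3 stood highest in the Ccl3/Ccl4 state of both libraries, at 203 and 234 CPM, and Jund was highest in resting-type cells, at 216 and 182 CPM.

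In Spp1-high cells (at least 0.5% of UMIs of Spp1; 35 stressed and 45 control cells), Atf3 was higher than in resting-type cells past 1.5 times in both libraries, and Jun and Jund were lower, of 6 genes measured. Jun rested on 6 stressed and 1 control UMI, and its log2 ratios, −0.63 (−2.11 to 0.54) in the stressed and −2.44 (−7.79 to 0.16) in the control library, had intervals that included 0. The background was 6.21% of genes higher and 7.53% lower. Atf3 stood at 68.0 CPM against 35.9 CPM in the stressed and 65.8 CPM against 30.6 CPM in the control library, but from only 14 and 10 UMIs. The intervals of both Atf3 log2 ratios, 0.92 (−0.01 to 1.76) and 1.10 (−0.12 to 2.22), included 0.

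In dividing cells no immediate early gene was higher in both libraries. Junb was lower past the fold in G2/M cells, the state of late division, with 20.3 CPM against 42.9 CPM in resting-type cells of the stressed and 12.6 CPM against 20.4 CPM in those of the control library. The control value rests on 4 G2/M UMIs, and its log2 ratio of −0.69 (−2.73 to 0.94) had an interval that included 0, while that of the stressed library was −1.08 (−1.82 to −0.39). It was 1 of 7 genes measured, against a background of 3.30% of genes lower and 11.1% higher. Jund in G2/M cells passed the fold in the stressed library alone. Its log2 ratio was −1.13 (−1.44 to −0.82) there and −0.43 (−0.95 to 0.07) in the control library. Jund was lower in S-phase cells, which copy their DNA, with 137 CPM against 216 CPM in the stressed and 97.7 CPM against 182 CPM in the control library. It was 1 of 6 genes measured, against 3.69% of genes lower and 10.1% higher. Over the 10 genes together, the chemokine state stood at 677 and 584 CPM and resting-type cells at 460 and 394 CPM in the stressed and control libraries. Atf3 alone gave 30.0% and 40.1% of the summed UMIs in the chemokine state, against 7.80% and 7.77% in resting-type cells. The higher sum of the chemokine state therefore does not stand for the 10 genes as a set. By the same sum, G2/M, S and Spp1-high cells lay between 331 and 372 CPM in the stressed and between 239 and 341 CPM in the control library. The intervals of these 3 states overlapped in both libraries. G2/M cells of the control library could not be placed below resting-type cells: the log2 ratio was −0.21 (−0.54 to 0.11), 1 cell held 19.4% of their UMIs of the 10 genes, and with a stricter cell filter the ratio was 0.11 (−0.29 to 0.51).

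Between cell classes, border-associated macrophage-like cells carried more Klf2, Klf6, Ier2 and Junb and less Atf3 than microglia-like cells in both libraries. These were 4 genes higher and 1 lower of 7 measured, against 8.17% of genes higher and 14.3% lower past 1.5 times in both libraries. Klf2 stood at 144 CPM (93.1 to 212) against 32.9 CPM in the stressed and at 101 CPM (68.5 to 143) against 17.9 CPM in the control library, which is 4.38 and 5.65 times as high. Klf6 stood at 80.5 CPM against 37.4 CPM in the stressed library and, in the control library, at 74.8 CPM against 40.7 CPM. Atf3 stood at 17.3 CPM against 58.8 CPM in the stressed library and, in the control library, at 19.5 CPM against 65.8 CPM, from 3 and 6 UMIs. Ier2 stood at 46.0 CPM against 29.9 CPM in the stressed library and, in the control library, at 74.8 CPM against 27.9 CPM, and the interval of its log2 ratio in the stressed library, 0.62 (−0.61 to 1.64), included 0. Junb rested on 10 UMIs in each library and the intervals of both its ratios included 0.

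The border-associated class was checked with Mrc1 and Lyve1, markers of these macrophages that were part of the gate. Mrc1 stood at 1168 and 1408 CPM in the border-associated class and at 75.1 and 70.3 CPM in microglia-like cells of the stressed and control libraries. Lyve1 stood at 690 and 725 CPM in the border-associated class, against 10 UMIs in stressed and 0 UMIs in control microglia-like cells. The 29 stressed cells of the class were few: 1 cell held 20 of the 97 UMIs of the 10 genes together, and after thinning the class stood below microglia-like cells in that library.

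Neural-like cells carried more Jund and Btg2 than microglia-like cells, and Jun, Junb and Atf3 were lower, of 7 genes measured in both libraries. Jun rested on 10 stressed and 5 control UMIs, and the interval of its control log2 ratio, −1.12 (−2.80 to 0.19), included 0. Klf2 was not among the 7 and had 1 UMI in the neural-like cells of each library. The background here was broad, with 37.2% of 6446 genes higher and 21.6% lower. Jund stood at 447 CPM (391 to 508) against 166 CPM in the stressed and 437 CPM (371 to 510) against 142 CPM in the control library, 2.69 and 3.07 times as high. Btg2 stood at 50.5 CPM (33.0 to 74.0) against 17.1 CPM in the stressed library and, in the control library, at 49.7 CPM (29.5 to 78.6) against 16.7 CPM, 2.95 and 2.97 times as high. The stressed and control neural-like levels of both genes lay within each other's intervals.

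Atf3 had 0 UMIs in the neural-like cells of both libraries, where the limit of 3 counts was 5.82 CPM in the stressed and 8.29 CPM in the control library. These limits are 0.0991 and 0.126 times the microglia-like levels. Fos also had 0 UMIs in both, and Junb had 0 in the stressed and 1 in the control library. Ctss, a microglial transcript no gate used, reached 0.713% and 0.276% of its microglia-like level in neural-like cells of the stressed and control libraries, which gauges the free RNA there. Tubb3, a neuronal transcript, reached 1.26% and 0.743% of its neural-like level in microglia-like cells.

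Between the libraries, the ratios of the 10 genes together lay near 0 in these 2 classes. The genes summed to 558 CPM in stressed and 546 CPM in control border-associated cells, a log2 ratio of 0.03 (−0.34 to 0.40), and to 553 CPM in stressed and 575 CPM in control neural-like cells, a log2 ratio of −0.05 (−0.32 to 0.21). Jund alone gave 80.7% of the summed UMIs in stressed and 76.0% in control neural-like cells, so the neural-like sum does not stand for the 10 genes as a set. In border-associated cells Junb and Btg2 were higher and Ier2 lower of 10 genes measured, where 24.3% of all genes were higher and 21.3% lower. In neural-like cells Klf6 and Ier2 were lower of 5 genes measured, where 16.3% of all genes were higher and 20.9% lower. The intervals of all 5 log2 ratios included 0.

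Vascular-like cells were too few to describe beyond their counts. The 7 stressed and 3 control cells gave 16 and 12 Klf2 UMIs, or 283 CPM (162 to 460) and 691 CPM (357 to 1207), against 32.9 and 17.9 CPM in microglia-like cells. The 7 stressed and 9 control monocyte or granulocyte-like cells gave 2 and 3 Fos UMIs.

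**Figure D4:**
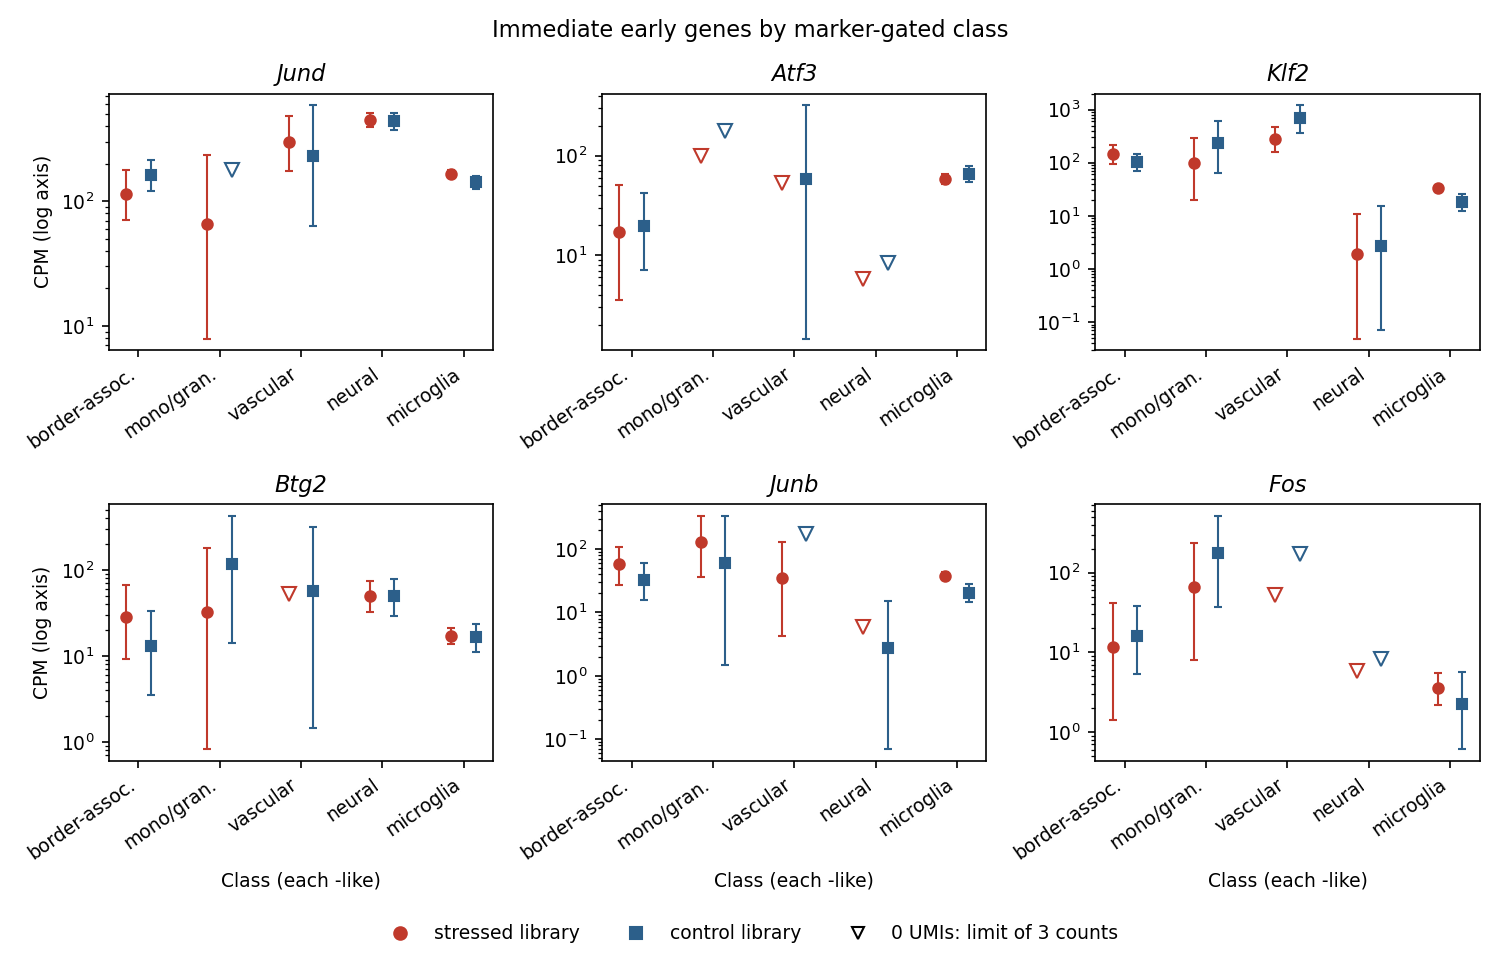
Level in CPM (log axis) of 6 immediate early genes by marker-gated class in the stressed (circles) and control library (squares), with exact Poisson 95% intervals, and with open triangles at the limit of 3 counts where a class had 0 UMIs. Atf3 had 0 UMIs in neural-like cells of both libraries, while Jund there stood at 447 and 437 CPM.

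Genes that accompany a dissociation response were measured in the same microglia-like cells. Fosb stood at 1.13 and 1.12 CPM, Nr4a1 at 2.07 and 1.12 CPM and Dusp1 at 2.25 and 1.12 CPM in the stressed and control libraries, each from 12 UMIs or fewer. The inducible heat-shock genes Hspa1a and Hspa1b stood at 0.563 and 0.751 CPM in the stressed library, against 2.23 and 5.58 CPM in the control library. These rest on 3 and 4 UMIs in the stressed and 4 and 10 UMIs in the control library. The log2 ratio was −2.89 (−5.02 to −1.10) for Hspa1b and −1.99 (−4.76 to 0.58) for Hspa1a. All 12 listed heat-shock genes together reached 3102 CPM (3055 to 3150) in the stressed and 3063 CPM (2983 to 3145) in the control library. Most of that sum came from Hsp90ab1, Hspe1 and Hspa8, at 826, 776 and 699 CPM in the stressed library. None of the 9 that reached 10 CPM differed past 1.5 times, and Hspa1a and Hspa1b were below that level. Of all genes at that level, 2.81% were higher and 7.61% lower past the same fold. The part of dissociation in the levels of the 10 genes was not tested, and these values stand beside them.

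In the chemokine state the 12 heat-shock genes together stood at 3101 CPM against 2865 CPM in resting-type cells of the stressed library and at 3243 CPM against 2940 CPM in those of the control library. None of 8 measured passed the fold there in both libraries. Median mitochondrial shares were 3.42% against 3.82% in the stressed and 2.18% against 2.39% in the control library. Other early-response genes that were higher in the chemokine state in both libraries were Ier3, at 47.0 against 17.7 CPM in the stressed and 45.2 against 15.3 CPM in the control library, and Gadd45b, at 35.9 against 2.80 CPM in the stressed library and 32.9 CPM against 0 UMIs in the control library. Ier3 and Gadd45b are known as early-response survival genes, and they were 2 of 8 measured on their list. Nab2, which represses Egr1, was 1 of 9 feedback regulators that were higher, at 56.6 against 20.98 CPM in the stressed and 69.9 against 29.3 CPM in the control library. Of 6 AP-1 and ATF partners measured, Atf2 and Atf4 were higher, and of 11 upstream kinases and factors none was. Among all genes measured for this comparison, 4.98% were higher and 3.29% lower in both libraries.

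The related genes were also compared between the libraries in microglia-like cells, where 2.81% of all genes were higher and 7.61% lower past the fold. Of 9 AP-1 and ATF partners measured, Atf7 and Jdp2 were lower in the stressed library. Their log2 ratios, −0.64 (−1.28 to 0.03) and −0.63 (−1.39 to 0.16), had intervals that included 0. Of 9 other early-response genes Klf13 was higher (37.0 CPM in the stressed and 21.8 CPM in the control library, log2 ratio 0.77, 0.26 to 1.30). Of 14 feedback regulators, Nfkbia, the inhibitor of NF-kappa B, was lower (15.6 CPM in the stressed and 24.0 CPM in the control library, log2 ratio −0.62, −1.17 to −0.06), as was Tnfaip3, which also restrains that pathway (9.39 CPM in the stressed and 15.6 CPM in the control library). None of 16 upstream kinases and factors passed the fold. With TMM scaling, which adds 0.11 to every log2 ratio, Atf7, Jdp2 and Nfkbia would lie inside the fold. The log2 ratio was −0.44 for the kinase Mapk14 and −0.27 for Dusp6, a phosphatase that switches off ERK kinases. Heat-shock genes went both ways inside the fold, with 0.18 for the chaperone Hspa8 and −0.14 for each of Hsp90ab1 and Dnajb1.

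**Figure D5:**
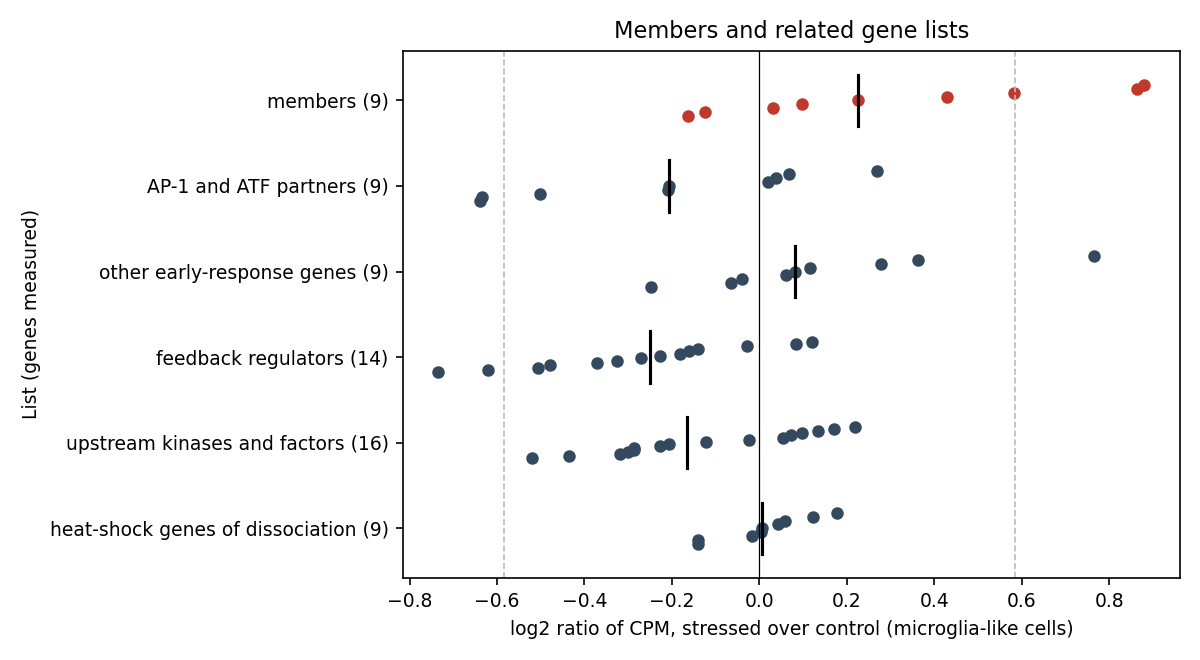
Log2 ratio of CPM, stressed over control, in microglia-like cells for each gene of at least 10 CPM in the set of immediate early genes and in 5 related lists, with the number of genes in brackets, a black bar at each median and dashed lines at 1.5 times. The medians were 0.22 for the immediate early genes and −0.25 for feedback regulators, against −0.09 over all genes.

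Within single cells the 10 genes were sparse once each cell was thinned to 1000 UMIs. Before thinning, 75.3% of stressed and 54.4% of control microglia-like cells had a UMI of the 10 genes. On average 1.40 and 0.77 of the genes were detected per cell. After thinning to 1000 UMIs, 65.3% of stressed microglia-like cells (62.5 to 68.1%) and 67.7% of control cells (64.0 to 71.3%) had none of the 10, and 5.37% and 5.38% had at least 2. Thinning by itself leaves few cells with 2 of the genes, and the share that their levels alone would give was not worked out. Over cells, the gene most like the sum of the 10 was Ccl4, with a Pearson correlation of 0.19 in the stressed and 0.14 in the control library, followed by Malat1 and Plaur among 5087 genes ranked. Among pairs of the 10 genes, ranked by the lower of the 2 libraries, Junb and Egr1 came first, with 0.22 in the stressed and 0.10 in the control library. These cells share a library and differ in depth, and correlations this weak are given as a description.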

How the data were processed

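Droplet single-cell libraries (10x Genomics 3′, v3 chemistry) were analysed, 1 per condition. The authors deposited UMI counts for each gene in each called cell, without normalization, and the file headers give software version 3.0.0. The submitters' processing notes list Seurat 2.4, STAR, Cell Ranger 3.0.0 and the assembly GRCm38.p5 (mm10) but no order of use. The counts are 3′ tags, so levels of the 10 genes were not ranked against each other, and shares of a summed count describe counts only.

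The filter kept 1407 stressed and 1068 control cells that had 500 genes or more and no more than 10% mitochondrial UMIs. A cell joined the class with most markers detected if it had at least 3 and at least 2 more than the next list; 58 stressed and 86 control cells lay near this limit. Microglia-like states were then gated in the order G2/M, S, Ccl3/Ccl4, Spp1-high and resting-type. Cells that mixed markers stayed without a class and no doublet caller was run. A further 39 and 50 macrophage-like cells fitted neither macrophage kind.

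Counts were summed over cells and divided by the class or state total to give CPM. Intervals are exact at 95%: Poisson for levels, conditional for ratios, Clopper-Pearson for shares. They leave out differences between cells, embryos and libraries. For ratios, 0 UMIs counted as 3. Genes at 10 CPM in either library were counted between libraries, and genes at 20 CPM between states and classes, where a call needed both libraries. The rule for naming related genes was the 3 with the largest log2 ratio in either direction at 20 CPM in each list. Only some of these are named in the text, and the other genes named were chosen after their values were seen. The genes and lists were chosen with earlier results of these data known. Gene positions come from GENCODE M21, which held 31011 of the 31053 feature identifiers. Alternatives used edgeR 4.0.16 and DESeq2 1.42.0 factors, and the count step was tested on simulated data. Python 3.11.15, scipy 1.17.1 and matplotlib 3.10.9 were used.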

Additional observations from a re-analysis of the deposited data

Results flagged for a closer look

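The 10 genes together, and Klf2 alone, differed between the libraries in opposite directions in microglia-like and vascular-like cells. For the 10 genes together the log2 ratio of stressed over control was 0.24 in microglia-like cells and −0.97 in vascular-like cells. For Klf2 it was 0.88 in microglia-like cells and −1.29 in vascular-like cells. The vascular-like values rest on 7 stressed and 3 control cells, and the difference between the classes was not tested.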

How the results depend on the processing

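No paired analysis was possible because each condition was 1 library. Depth, embryo sex, dam and library differed along with treatment, and between the libraries the intervals of 6 of the 10 genes included 0. Over 16 alternatives the number of genes higher in the stressed microglia-like cells ran from 0 to 5 and the number lower stayed at 0. It was 0 of 9 with thinned cells (8.70% of all genes higher), 0 of 2 at 50 CPM (0.624%), 0 of 9 past 2 times (0.640%), 4 of 9 with a stricter cell filter (4.84%; 1000 genes or more, no more than 5% mitochondrial UMIs), and 5 of 9 among cells with Xist and no Y-linked UMI (8.16%), against 2 of 9 and 2.81% as reported. The log2 ratio of the 10 genes together (0.24) was 0.14 (−0.08 to 0.35) with thinned cells, the lowest value and one whose interval included 0, 0.42 with that filter, 0.48 among cells with Xist, and 0.38 among cells with a lower heat-shock share. It stayed positive in all 13 alternatives run. Fos gave no value in 2 alternatives that left the control sum with 0 UMIs.

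With thinned cells the log2 ratio of the 10 genes over resting-type cells was 0.23 in the control chemokine state, −0.76 and −1.45 in Spp1-high cells of the stressed and control libraries, −0.65 in control G2/M cells and −1.27 in control S-phase cells. In G2/M cells it was −0.21 in the stressed library as a mean over cells and 0.11 in the control library with the stricter filter. Of the classes, border-associated over microglia-like cells reversed to −0.94 in the stressed library with thinned cells, against 0.34 without, and neural-like cells of the control library stood at 0.36. The cause was not tested. Leaving out the shared barcodes, an alternative chosen after seeing the data, moved none of these results by more than the counting interval.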
